A study of Homo sapiens with 5 samples.

Results

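The genes described here encode membrane and membrane skeleton proteins of the red blood cell. They are *GYPB*, *GYPC*, *SPTB*, *EPB41*, *ANK1*, *EPB42*, *SLC4A1*, and *RHAG*, 8 of the 27328 genes in the count table. They were selected by name, with earlier results of these data known, and each corresponded to 1 Ensembl row. Counts were compared between TF-1 cells with a knockout of *MTSS1* and control cells.

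The red cell keeps its shape and elasticity through a meshwork of spectrin that is cross-linked by short actin filaments under the lipid bilayer. The product of *EPB41* strengthens the contact of spectrin with actin and also binds glycophorin C, encoded by *GYPC*. *SPTB* encodes β-spectrin. Ankyrin, the product of *ANK1*, ties β-spectrin to the chloride-bicarbonate exchanger encoded by *SLC4A1*, and the product of *EPB42* stabilizes that link. The exchanger is joined by the Rh proteins, whose transport to the cell surface requires the Rh-associated glycoprotein encoded by *RHAG*. Glycophorin B, the product of *GYPB*, carries blood group antigens. Inherited loss of several of these proteins causes spherocytosis or elliptocytosis. Most of the genes are switched on as erythroid precursors mature, and the factors GATA1 and KLF1 are known activators of the erythroid program.

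The human AML line TF-1 grows in GM-CSF and has erythroid features. Each of the 5 libraries came from a pool of 4 single-cell clones, all of which carried a lentiviral vector with Cas9 and an sgRNA. The 2 control pools, sgCtrl_1 and sgCtrl_2, carried an sgRNA against the *Renilla luciferase* gene. The 3 knockout pools, sgMTSS1_1, sgMTSS1_2, and sgMTSS1_3, carried a different *MTSS1* sgRNA each. Untransduced cells were not analysed here, and 1 further pool per group had been excluded by the authors as an outlier. No drug treatment is named for these libraries, and loss of the MTSS1 protein had been verified by the authors in the clones. A replicate is therefore a pool of clones of 1 cell line, and clonal differences are part of the spread between pools.

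Promoter sequences are shown for the GATA motif, the sequence bound by GATA1. The motif itself was not used to choose the members. Most of them are erythroid genes, however, and GATA1 is a known activator of that program, so the motif is not independent of the choice. RefSeq windows of 300 bases, from 250 before to 50 after a gene's start on GRCh38.p14, were at hand for 6 of the 8 members. The forms AGATAA and AGATAG, as well as the forms TGATAA and TGATAG, were searched on both strands. Of the 9 windows of these 6 genes, 7 held at least 1 match, and each of the 6 genes had a window with a match. Among all 35116 windows, 25.0% held one, which is a share of windows and not of genes. The sequence CCNCACCC, of the kind bound by KLF1, was found on either strand in 3 of the 9 windows, those of *SPTB* and *RHAG*, and in 18.3% of all windows. A match describes letters and does not show binding.

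In the following 120-base stretches, read 5′ to 3′ on the strand of the gene, capitals mark the GATA motif on either strand. The stretches run from 100 bases before the start to base 20 of the transcript, except that the stretch of *EPB41* runs from position −200 to −81, since its match begins at position −189. They lie at chr4:144019361-144019480 (minus strand) for *GYPB*, chr2:126656058-126656177 (plus) for *GYPC*, chr14:64879888-64880007 (minus) for *SPTB*, chr1:28886900-28887019 (plus) for *EPB41*, chr15:43220999-43221118 (minus) for *EPB42*, and chr6:49636820-49636939 (minus) for *RHAG*.
*GYPB*: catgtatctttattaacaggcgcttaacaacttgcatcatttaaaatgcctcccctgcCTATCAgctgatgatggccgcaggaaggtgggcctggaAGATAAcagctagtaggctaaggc
*GYPC*: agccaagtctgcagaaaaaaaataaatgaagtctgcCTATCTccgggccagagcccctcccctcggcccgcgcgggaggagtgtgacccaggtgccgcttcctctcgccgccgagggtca
*SPTB*: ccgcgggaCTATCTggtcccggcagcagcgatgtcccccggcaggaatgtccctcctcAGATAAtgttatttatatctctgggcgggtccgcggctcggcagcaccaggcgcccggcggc
*EPB41*: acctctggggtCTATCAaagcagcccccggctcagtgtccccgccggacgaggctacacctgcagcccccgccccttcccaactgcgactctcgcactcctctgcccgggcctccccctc
*EPB42*: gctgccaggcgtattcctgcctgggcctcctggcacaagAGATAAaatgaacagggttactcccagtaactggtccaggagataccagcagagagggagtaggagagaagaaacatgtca
*RHAG*: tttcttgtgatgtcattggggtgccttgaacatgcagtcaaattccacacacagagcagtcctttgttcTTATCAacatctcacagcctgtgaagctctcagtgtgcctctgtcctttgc

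*GYPB* and *SPTB* each showed 2 matches in these stretches, one on each strand. *EPB42* had a second match at position −208, outside the stretch. The 6 genes that shared the motif included both those with higher and those with lower mean levels in the knockout pools, as described next.

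Total counts ranged from 2849979 to 8854899 per library, and each knockout library was deeper than both control libraries. A detection limit of 3 counts was chosen, and lower values are still printed. It corresponded to 0.387 to 0.931 CPM, a count relative to the library total after TMM scaling. *MTSS1* mRNA was at 203 and 87.4 CPM in the control pools and at 103, 138, and 49.7 CPM in the knockout pools, so the groups overlapped and this mRNA did not serve as a check of the labels. Its end is overlapped on the opposite strand by *NDUFB9*. Of 12 erythroid marker genes, 11 were in the table and all were above the detection limit in every library. *HBA2*, encoding α-globin, was the highest of them at 1387 to 4849 CPM. All 6 progenitor and GM-CSF receptor markers were found, with a summed level of 333 to 609 CPM. The 3 megakaryocyte markers in the table, of 5 listed, summed to 95.9 to 252 CPM, most of it *ITGA2B*. Granulocyte and monocyte markers (4 of 8 in the table, summed level 1.55 to 2.96 CPM) and lymphoid markers (3 of 5, summed level 4.13 to 12.7 CPM) were near the limit. The markers of TF-1 cells were thus present. In RNA from whole pools, fewer cells of an erythroid stage and less mRNA per cell cannot be told apart.

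Together, the 8 members took 0.0872% and 0.0880% of all counts in the control libraries and 0.0899%, 0.0896%, and 0.128% in the knockout libraries. Exact 95% binomial intervals, which cover counting error only, were 0.0838% to 0.0907% and 0.0848% to 0.0912% for the control libraries. For the knockout libraries they were 0.0879% to 0.0919%, 0.0871% to 0.0921%, and 0.125% to 0.131%. In these shares, which are not TMM-scaled, sgMTSS1_3 alone stood apart from the others beyond counting error. After TMM scaling, the members summed to 771 and 888 CPM in the control pools. In the knockout pools they summed to 1027, 875, and 1287 CPM, so that sgMTSS1_1 and sgMTSS1_3 were both above the control pools. *GYPC* made up from 34.4% of the members' counts in sgCtrl_1 to 63.9% in sgMTSS1_3, with the other 3 libraries in between. Libraries of this kind give about 1 read per mRNA molecule, so CPM values can be compared between genes without a correction for length. *GYPC* was the most abundant member in both groups, with a mean of 387 CPM in the control and 604 CPM in the knockout pools. *EPB41* and *ANK1* followed, and they exchanged ranks. *EPB41* was second in the control pools (mean 250.5 CPM, SD 20.1) and *ANK1* was second in the knockout pools (mean 217 CPM). The ranges of these 3 genes did not overlap in either group, although *GYPC* and *EPB41* were level in sgCtrl_1, at 265 CPM each. *RHAG*, *GYPB*, and *EPB42* lay between 2.87 and 89.1 CPM, and *SPTB* and *SLC4A1* below 6 CPM in every pool. Neighbors in the order whose ranges overlapped were *EPB42* with *GYPB* in the control pools, *RHAG* with *GYPB* and *EPB42* with *SPTB* in the knockout pools, and *SPTB* with *SLC4A1* in both groups.

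**Figure D1:**
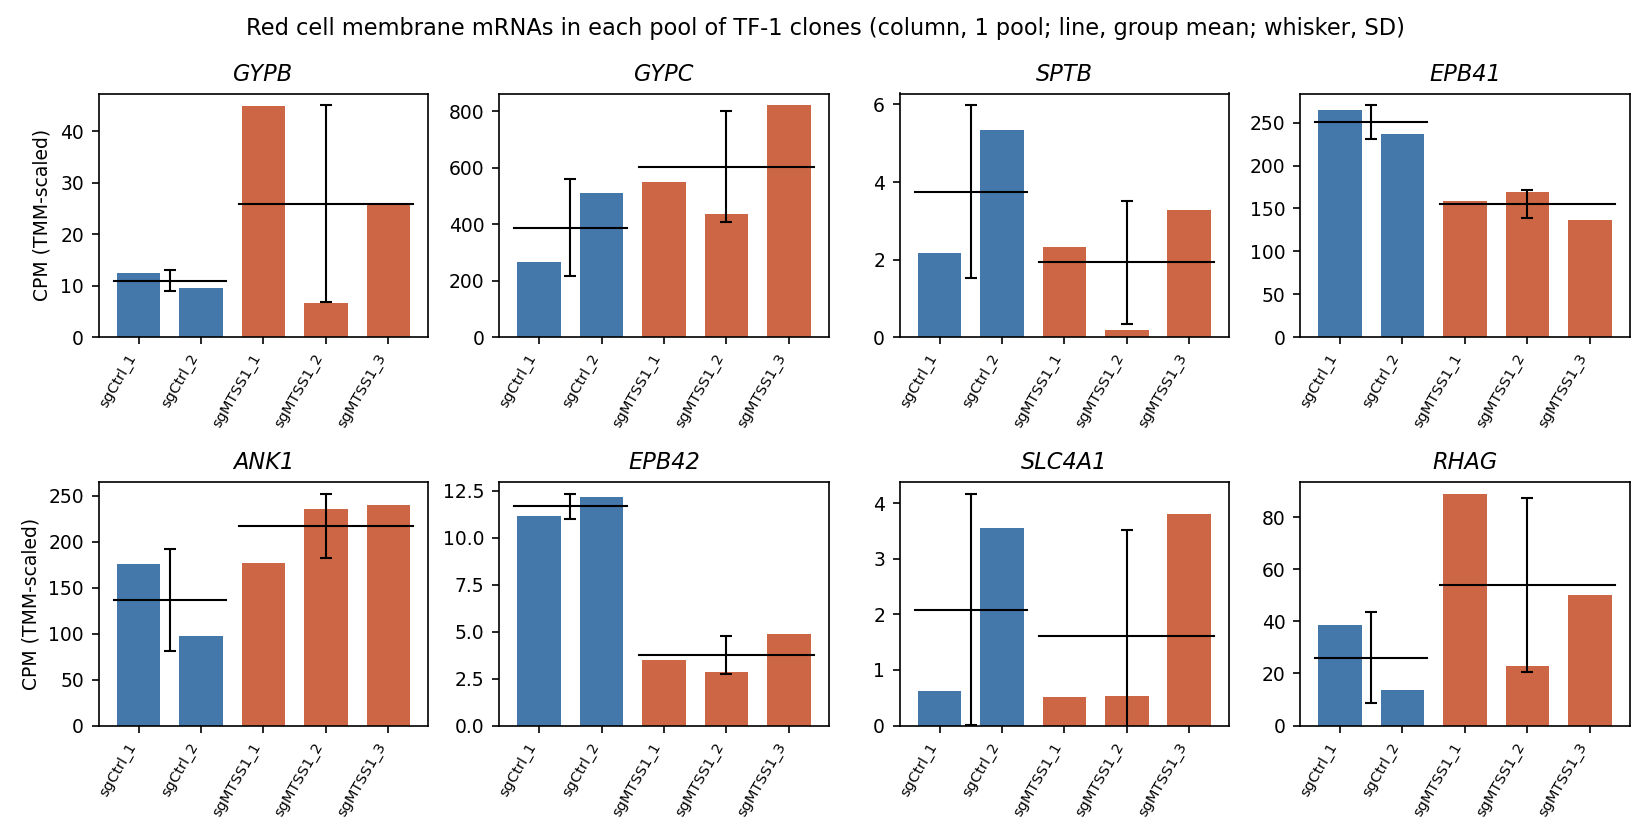
TMM-scaled CPM of the 8 genes in each of the 5 pools. Each column is 1 pool, blue for control and orange for knockout, with the group mean as a line and the SD as a whisker, which is not drawn below 0. Knockout columns of *EPB42* and *EPB41* all lie below both control columns, whereas *GYPB*, *RHAG*, *SPTB*, and *SLC4A1* differ more among the knockout pools than between the groups.

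None of the 8 members was called differentially expressed in edgeR's quasi-likelihood test. Calls were made at p-values under 0.05 after Benjamini-Hochberg adjustment, if the log2-fold change also exceeded 1 in either direction. Of all 14391 genes tested, 600 (4.17%) were called higher and 145 (1.01%) lower in the knockout. These totals depended on single pools, and the sum of 745 became 1349 without sgCtrl_1 and 111, 347, and 191 without sgMTSS1_1, sgMTSS1_2, and sgMTSS1_3. At an unadjusted p-value under 0.05, 2 members passed (*EPB42* and *EPB41*), as did 3359 of the 14391 genes tested. In DESeq2 and in limma-voom, 1 member was called lower, *EPB42*. Over all genes tested, DESeq2 called 333 lower (2.31%) and limma-voom 124 (0.862%). The log2-fold change was positive for 4 members and negative for 4, with a median of 0.12 against −0.03 over all genes tested. Every knockout pool was above both control pools for 1 member (*ANK1*) and below both for 2 (*EPB41* and *EPB42*). Among all genes tested, these shares were 22.2% and 19.2%.

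*EPB42*, whose product stabilizes the contact of ankyrin with the anion exchanger, had the largest negative difference (ENSG00000166947, GRCh38 chromosome 15, 43197227 to 43221018, minus strand). It was at 11.2 and 12.1 CPM in the control pools and at 3.48, 2.87, and 4.84 CPM in the knockout pools. Both control pools were thus well above the highest knockout pool, and the pools of each group lay close together. Group means were 11.7 ± 0.69 CPM (SD, n = 2) and 3.73 ± 1.01 CPM (SD, n = 3), a fitted difference of 3.12-fold. The log2-fold change was −1.64 (standard error 0.41, 95% interval −2.56 to −0.72), and the adjusted p-value of 0.0509 in edgeR's quasi-likelihood test missed the threshold narrowly. The adjusted p-value was 0.0204 in DESeq2 and 0.0490 in limma-voom. It was 0.0366 with scaling by library size alone, where 232 of 14391 genes (1.61%) were called lower. With a filter that required 10 counts in every library it was 0.0387, and 113 of 10734 genes (1.05%) were called lower. With all libraries thinned to the smallest total, the log2-fold change was −1.35 and the adjusted p-value 0.137. The direction was the same under all 13 alternatives.

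The counts behind these levels were low, with 36 and 41 in the control libraries and 27, 16, and 28 in the knockout libraries. A long non-coding RNA, ENSG00000285117, overlaps the end of *EPB42* on the same strand in GENCODE release 44, and no counts are listed for it. Its transcripts hold 47.2% of the 50-base stretches in the last 500 bases of the *EPB42* transcript. Reads there cannot be assigned to 1 of the genes by sequence, and which annotation was used for counting is not given in the sources used here, so the count of *EPB42* is uncertain.

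**Figure D2:**
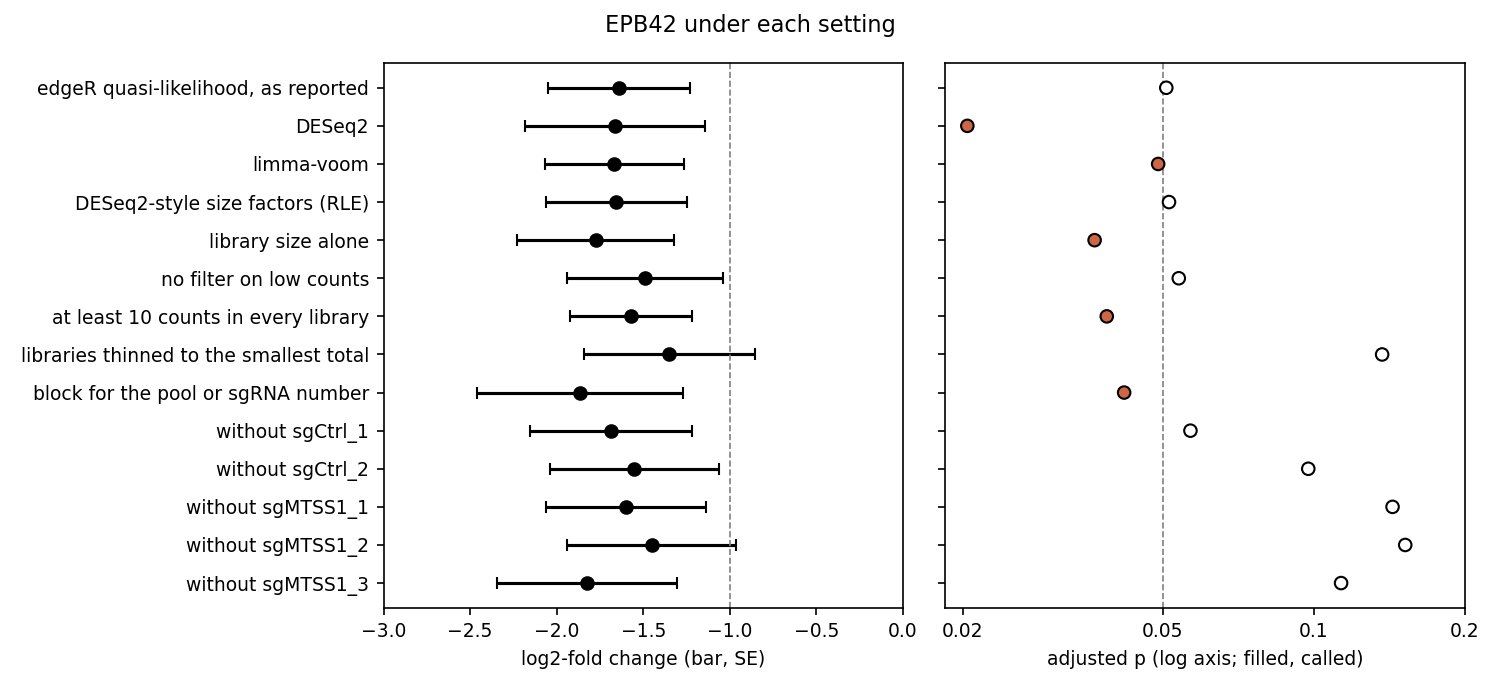
*EPB42* under 14 settings, the reported one at the top. The left panel gives the log2-fold change with its standard error and a dashed line at −1, the right panel the adjusted p-value on a log axis with a dashed line at 0.05 and filled symbols for calls. All log2-fold changes lie between −1.87 and −1.35, and 5 of the adjusted p-values fall under 0.05.

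*ANK1*, encoding ankyrin (ENSG00000029534, chromosome 8, 41653220 to 41896741, minus strand), went the other way. It was at 176 and 97.7 CPM in the control pools and at 177, 235, and 239.8 CPM in the knockout pools. All knockout pools were higher, but sgMTSS1_1 exceeded sgCtrl_1 by less than 1 CPM. The log2-fold change was 0.66 (standard error 0.35, 95% interval −0.11 to 1.44, adjusted p = 0.286 in edgeR's quasi-likelihood test), and it was 0.33 without sgCtrl_2 and 1.16 without sgCtrl_1. Within a library, the ratio of *EPB42* to *ANK1* counts does not depend on scaling. This ratio was 0.0635 and 0.124 for sgCtrl and 0.0197, 0.0122, and 0.0202 for sgMTSS1 libraries. The groups could not overlap in it, since every knockout pool was below both control pools for *EPB42* and above both for *ANK1*. The separation of the ratio is thus no further result. The pair was put together after the values had been seen, and the ratio was not tested.

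*SLC4A1*, the gene of the anion exchanger itself (ENSG00000004939, chromosome 17, 44248390 to 44268141, minus strand), was barely expressed. Counts were 2 and 12 for sgCtrl and 4, 3, and 22 for sgMTSS1, or 0.62, 3.55, 0.52, 0.54, and 3.81 CPM. With 2 counts, sgCtrl_1 was below the detection limit, and sgMTSS1_2 with 3 counts was at it. A single pool of each group, sgCtrl_2 and sgMTSS1_3, was above the others, and the groups overlapped fully. The log2-fold change of −0.40 (standard error 1.01, 95% interval −2.66 to 1.85, adjusted p = 0.851 in edgeR's quasi-likelihood test) does not show that the level was the same. Without sgCtrl_2 it was 1.35.

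*RHAG*, encoding the Rh-associated glycoprotein (ENSG00000112077, chromosome 6, 49605175 to 49636839, minus strand), was at 38.5 and 13.6 CPM in the control pools and at 89.1, 22.8, and 50.2 CPM in the knockout pools. The sgMTSS1_2 pool lay between the control pools, and the other two knockout pools were above both. The highest knockout pool exceeded the lowest 3.91-fold, more than the 2.08-fold difference fitted between the groups. The log2-fold change was 1.05 (standard error 0.59, 95% interval −0.27 to 2.38, adjusted p = 0.320 in edgeR's quasi-likelihood test). It was 2.003 without sgCtrl_1 and 0.48 without sgMTSS1_1.

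*GYPB*, encoding glycophorin B (ENSG00000250361, chromosome 4, 143996104 to 144019380, minus strand), had the largest positive difference, and the order of its knockout pools was that of *RHAG*. It was at 12.4 and 9.48 CPM in the control pools and at 45.0, 6.64, and 26.1 CPM in the knockout pools. The sgMTSS1_2 pool was the lowest of all 5, whereas sgMTSS1_1 and sgMTSS1_3 were above both control pools. The log2-fold change was 1.25 (standard error 0.66, 95% interval −0.24 to 2.73, adjusted p = 0.293 in edgeR's quasi-likelihood test), and the difference was smaller than the 6.78-fold span of the knockout pools. It was 0.57 without sgMTSS1_1 and 1.74 without sgMTSS1_2. Of the 50-base stretches in the last 500 bases of its transcript, 20.8% also occur in transcripts of other genes, among them *GYPE*. Reads that mapped to more than 1 place had been removed by the authors, so the level of *GYPB* is uncertain.

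*GYPC*, the gene of glycophorin C (ENSG00000136732, chromosome 2, 126656133 to 126696667, plus strand), is expressed in many blood cell types and is unrelated to the other glycophorin genes by sequence. It was at 265 and 509.6 CPM in the control pools and at 551, 438, and 822 CPM in the knockout pools. The sgMTSS1_2 pool fell between the control pools, so the groups overlapped. The log2-fold change was 0.64 (standard error 0.41, 95% interval −0.28 to 1.56, adjusted p = 0.389 in edgeR's quasi-likelihood test). It was 0.26 without sgCtrl_1, 1.21 without sgCtrl_2, and 0.37 without sgMTSS1_3. None of the 50-base stretches at the end of its transcript occurred in another gene's transcript.

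The spectrin and actin junction was represented by *EPB41* and *SPTB*, both with negative log2-fold changes. *EPB41* (ENSG00000159023, chromosome 1, 28887091 to 29120046, plus strand) was at 265 and 236 CPM in the control pools and at 159, 169.7, and 137 CPM in the knockout pools. Every knockout pool was below both control pools, and the pools of each group varied little, by 1.12-fold in the control and 1.24-fold in the knockout group. Group means were 250.5 ± 20.1 CPM (SD, n = 2) and 155 ± 16.7 CPM (SD, n = 3). The log2-fold change of −0.69 (standard error 0.28, 95% interval −1.32 to −0.07) had an unadjusted p-value of 0.0338 and an adjusted p-value of 0.176 in edgeR's quasi-likelihood test. It stayed between −0.84 and −0.55 under all 13 alternatives. *TMEM200B*, for which no counts are listed, overlaps the end of *EPB41* on the opposite strand.

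*SPTB* (ENSG00000070182, chromosome 14, 64746283 to 64879907, minus strand) had 7 and 18 counts in the control libraries and 18, 1, and 19 in the knockout libraries. In CPM these were 2.17, 5.33, 2.32, 0.18, and 3.29, with sgMTSS1_2 below the detection limit. The ranges of the groups overlapped. A log2-fold change of −0.94 was fitted (standard error 0.84, 95% interval −2.82 to 0.93, adjusted p = 0.542 in edgeR's quasi-likelihood test). Leaving out 1 pool gave −0.13 without sgCtrl_2, −0.41 without sgMTSS1_2, −1.43 without sgCtrl_1, and −1.47 without sgMTSS1_3. *PLEKHG3*, with 59 to 133 counts, overlaps the end of *SPTB* on the opposite strand, so that counts of *SPTB* are uncertain if strand was ignored.

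**Figure D3:**
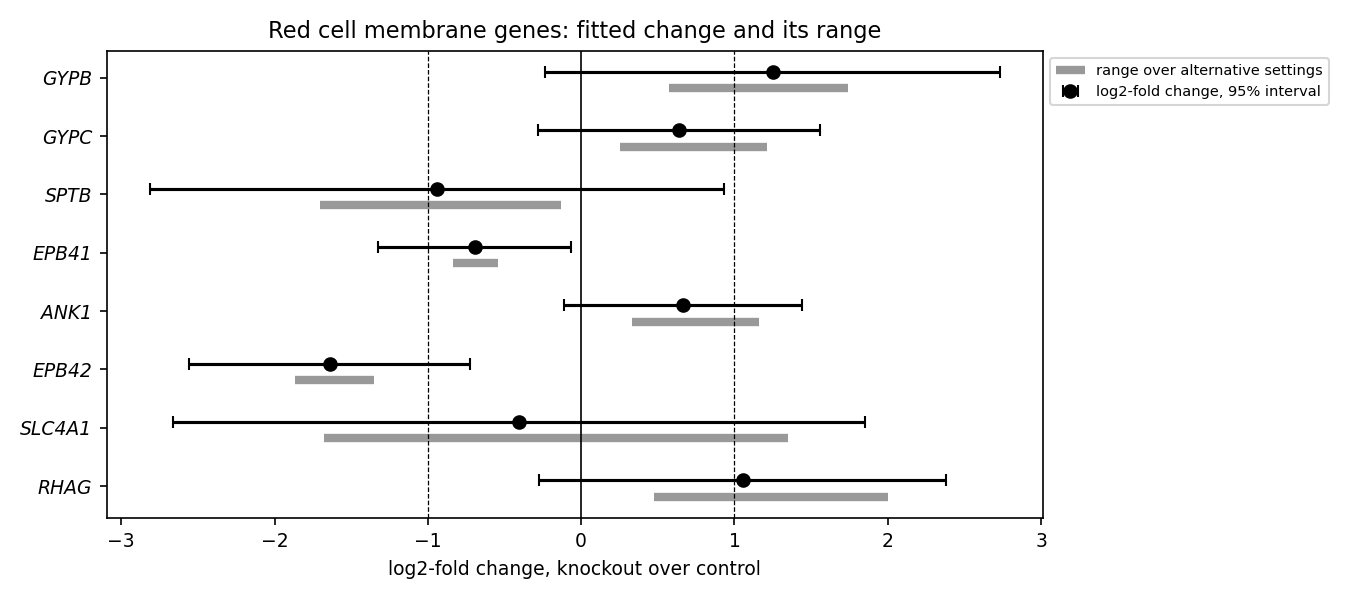
Log2-fold change (knockout over control) of the 8 genes with its unadjusted 95% interval as points and whiskers, and in grey the range over the alternative settings. Dashed lines mark −1 and 1. Intervals of *EPB42* and *EPB41* lie below 0, the other 6 include it, and the grey range crosses 0 for *SLC4A1*.

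Pools of the knockout group differed from each other. For 5 members, *GYPB*, *GYPC*, *SPTB*, *EPB42*, and *RHAG*, sgMTSS1_2 was the lowest of the knockout pools, at 1 count for *SPTB* and 16 for *EPB42*. For *ANK1* and *SLC4A1* the lowest was sgMTSS1_1, and for *EPB41* it was sgMTSS1_3. Of the 11 erythroid markers, 10 were lowest in sgMTSS1_2, all but *GATA1*, by a narrow margin for *KLF1*. The share of all genes that were lowest in sgMTSS1_2 was not determined. *ALAS2*, the erythroid enzyme that starts heme synthesis, was at 8.08 CPM in sgMTSS1_2 against 20.4 and 43.1 CPM in sgMTSS1_1 and sgMTSS1_3, and at 20.8 and 42.6 CPM in the control pools. *HBG2*, encoding a fetal globin, was at 41.8 CPM in sgMTSS1_2, 221 and 342 CPM in the other knockout pools, and 284 and 814 CPM in the control pools. Also lower in sgMTSS1_2 than in both control pools were *HBA1*, *HBA2*, *HBZ*, *AHSP*, and *GATA1*. In contrast, *TFRC* was above both, at 746 against 606 and 634 CPM, and so was *KLF1*. *HBB* (65.4 CPM) and *HBG1* (12.9 CPM) lay between the control pools. Summed levels of the erythroid markers were 4830 and 8108 CPM in the control and 4300.3, 2786, and 4715 CPM in the knockout pools. *HBA1*, also an α-globin gene, was called lower (log2-fold change −1.73, adjusted p = 0.0300 in edgeR's quasi-likelihood test), and was the single erythroid marker called. Of all 14391 genes tested, 145 (1.01%) were called lower. *HBA1* and *HBA2* are near-identical copies, so how reads were split between them is uncertain. *GATA1* was at 109 and 80.2 CPM in the control and 56.1, 62.3, and 74.7 CPM in the knockout pools (adjusted p = 0.291), and *KLF1* at 137 and 149 CPM against 187, 184, and 253 CPM (adjusted p = 0.317, same test). The part of the erythroid state of a pool in the values of the members was not tested.

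Without sgMTSS1_2, the log2-fold changes of *GYPB*, *RHAG*, and *GYPC* were 1.74, 1.48, and 0.85. Without sgMTSS1_1 they were 0.57, 0.48, and 0.69. None of the 8 members was called in either case.

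Of the other red cell membrane genes, 35 were in the table and 34 were tested. *CD59* was called higher, and none was called lower. Of all 14391 genes tested, 600 (4.17%) were called higher and 145 (1.01%) lower. Every knockout pool was above both control pools for 5 of the 34, and for 22.2% of all genes tested. *CD59*, encoding a surface inhibitor of complement lysis, was at 12.7 and 11.3 CPM in the control pools and at 61.4, 33.6, and 43.6 CPM in the knockout pools. Every knockout pool was far above both control pools, and edgeR's quasi-likelihood test gave an adjusted p-value of 0.0221 for its log2-fold change of 1.94 (standard error 0.37). Without sgMTSS1_1 or sgMTSS1_3, the adjusted p-value was 0.0754 or 0.0639. *CD59* is not restricted to red cells. At an unadjusted p-value under 0.05, 5 of the 34 passed, against 3359 of all 14391 genes tested. The median log2-fold change of the 34 was 0.00, with 17 values on either side of 0.

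By role, the 10 other skeleton genes had a median log2-fold change of −0.44. Of these 10, 8 were below 0, against 7439 of all 14391 genes tested. *TPM3*, a tropomyosin found in most cells, was the most abundant of the skeleton genes. It was at 354 and 449.8 CPM in the control and 480.5, 427, and 433 CPM in the knockout pools. It differed little, with a log2-fold change of 0.15 (adjusted p = 0.807 in edgeR's quasi-likelihood test). The 16 surface and blood group genes had a median of 0.36, with 10 above 0, and the 8 tested transporters and channels of 0.23, with 5 above 0. *SLC16A1*, a lactate transporter, was at 212 and 176 CPM in the control and at 286, 219, and 236 CPM in the knockout pools (log2-fold change 0.35, adjusted p = 0.528 in the same test). *KCNN4*, the calcium-activated potassium channel of the red cell, was at 42.5 and 181 CPM in the control and at 307, 248, and 326 CPM in the knockout pools. All knockout pools were higher, but the control pools lay 4.26-fold apart, and the log2-fold change of 1.39 (standard error 0.53) had an adjusted p-value of 0.155 in edgeR's quasi-likelihood test.

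Relatives of the members that serve other cell types belong to the same protein families. Of 16 such genes in the table, 9 were tested, and none was called by edgeR's quasi-likelihood test, 1 by DESeq2, and none by limma-voom. Over all 14391 genes tested, the same methods called 745, 1343, and 634. At an unadjusted p-value under 0.05, 2 of the 9 passed, against 3359 of all 14391 genes tested. *SPTBN1*, the β-spectrin of non-erythroid cells, was at 478 and 324 CPM in the control and 153, 369.8, and 185 CPM in the knockout pools, far above *SPTB*. Its groups overlapped (log2-fold change −0.77, adjusted p = 0.301 in edgeR's quasi-likelihood test). *EPB41L2*, a relative of *EPB41*, was at 264 and 282 CPM in the control and at 393, 356, and 327 CPM in the knockout pools (log2-fold change 0.39, adjusted p = 0.458 in the same test). Every knockout pool was above both control pools. *TGM2*, a transglutaminase of the family to which the product of *EPB42* belongs, was at 195 and 152 CPM in the control and at 159.6, 172, and 145 CPM in the knockout pools (log2-fold change −0.13, adjusted p = 0.827 in the same test). The tested relatives had a median log2-fold change of −0.76, with 7 of 9 below 0. Over all 14391 genes tested the median was −0.03, with 7439 below 0. Each of the genes for other ankyrins, anion exchangers, and Rh glycoproteins that were in the table failed the filter on low counts.

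**Figure D4:**
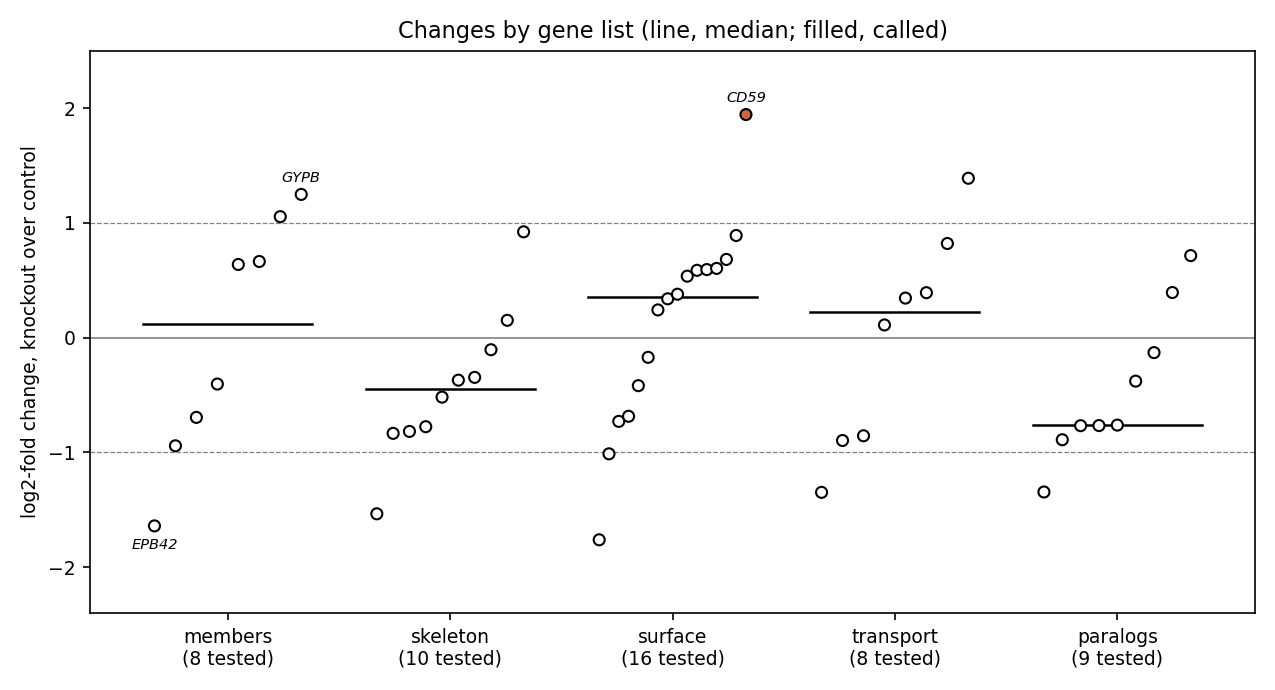
Log2-fold change (knockout over control) of the tested members, the other red cell membrane genes by role, and the relatives of the members. Each circle is 1 gene, the line is the median, and a filled circle is a called gene, which applies to *CD59* alone. Dashed lines mark −1 and 1. The members at both ends of their list, *EPB42* and *GYPB*, are named for orientation.

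Of the 8598 other tested genes with a mean of at least 10 CPM, *FXYD5*, *CNN2*, and *LHPP* had the profile over the 5 libraries most like that of *EPB42*. Their mean-centred log2 CPM departed from that of *EPB42* by a root mean square of 0.21, 0.22, and 0.24. *FXYD5* was at 491 and 391 CPM in the control and at 152, 156, and 185 CPM in the knockout pools. With 5 libraries and many genes, some profiles are alike in any such search, and nothing follows about shared control.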

How the data were processed

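RNA of 5 pools of TF-1 clones was measured with 3′ mRNA libraries (QuantSeq, forward kit) read as single ends of 50 bases. The authors converted files with SAMtools 1.10, trimmed adapters with BBDuk, checked quality with FastQC 0.11.9, aligned reads to GRCh38 with HISAT2 2.1.0, discarded non-unique alignments, and used DESeq2. The deposited values are raw counts per Ensembl gene. The counting program, its annotation release, its use of strand, and the handling of PCR duplicates are not given in the sources used here. No column of the table was left unused.

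From the counts, 14391 of 27328 genes passed filterByExpr (minimum count 10) and were tested in edgeR 4.0.16 (R 4.3.3) with TMM factors and the quasi-likelihood test, knockout against control, with no covariate. Calls were made at p-values under 0.05 after Benjamini-Hochberg adjustment over all tested genes, if the log2-fold change also exceeded 1 in either direction. CPM values are relative to total counts times the TMM factor. Standard errors were derived from the log2-fold change and its F statistic. The common biological coefficient of variation was 32.2%. Total counts of 2849979 to 8854899 set the precision, and depth and condition cannot be told apart, since each knockout library was the deeper one. Binomial intervals of shares and the limit of 3 counts cover counting error only, whereas intervals of log2-fold changes include the spread between pools. Replicates are separate pools of clones, named by the sgRNA or pool number in the labels.

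Alternatives were DESeq2 1.42.0, limma-voom (limma 3.58.1), other scalings, filters, and thresholds, thinning to the smallest library, a block, and leaving out each pool. The procedure was also run on simulated data, but the outcome is not reported here and gives no support for the calls. Promoters came from RefSeq (GRCh38.p14), gene positions and overlaps from GENCODE release 44, and gene symbols for 27211 of the IDs were matched.

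The members and the gene lists were chosen with earlier results of these data known. Of the other red cell membrane genes and of the relatives, the text names those called and the 3 with the highest mean CPM. *GYPE*, *BCAM*, *ADD2*, *NDUFB9*, *TMEM200B*, *PLEKHG3*, and single erythroid markers lie outside this rule and were named after their values were seen. Some genes of the lists are not reported here.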

Additional observations from a re-analysis of the deposited data

How the results depend on the processing

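Over all genes, the 745 calls became 1343 with DESeq2, 1374 with no filter on low counts, and between 111 (without sgMTSS1_1) and 1349 (without sgCtrl_1) when 1 pool was left out. Of the 8 members, 1 was called (*EPB42*) with DESeq2, with limma-voom, with scaling by library size alone, and with at least 10 counts required in every library, against 0 as reported. The 1374 calls with no filter were among 27328 genes tested, against 745 among 14391 as reported, so these 2 totals do not compare as shares. With 1 pool left out, 13303 to 15661 genes were tested. Over all genes, limma-voom called 634, scaling by library size alone 800, and the stricter filter 601 of 10734. Leaving out any 1 pool gave 0, with adjusted p-values of *EPB42* from 0.0568 to 0.152. Of the other red cell membrane genes, 2 in place of 1 were called with DESeq2 and with thinned libraries (*BCAM* and *CD59*) and with no filter (*CD59* and *KCNN4*), and 0 (without sgMTSS1_1 or sgMTSS1_3) to 5 (without sgCtrl_1) with 1 pool left out. Of the relatives, 1 in place of 0 was called with DESeq2, and 0 to 1 (without sgCtrl_1) with 1 pool left out. *SLC4A1* had log2-fold changes from −1.14 to 1.35 with 1 pool left out and was above 0 without sgCtrl_2, sgMTSS1_1 (0.04), or sgMTSS1_2 (0.01). The cause was not tested. Of 99 alternative values of the members, 91 kept their direction and side of the threshold. For *EPB42*, 8 of 13 did so and 5 crossed to a call, and for *SLC4A1* 3 values changed sign. The other members were called under no setting, so their part of the 91 does not show that their log2-fold changes were stable. That of *GYPC*, for example, ranged from 0.26 to 1.21. The median over all genes was −0.17 in place of −0.03 when libraries were scaled by their size alone.

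Pools with the same number share only that number, which is an sgRNA in the knockout and a pool in the control group. The difference of pool 2 from pool 1 correlated between the groups across genes with r = 0.17, and genes are not independent replicates. With the replicate block, 1094 genes were called over all, 1 member (*EPB42*), 3 other red cell membrane genes (*ADD2*, *CD59*, and *KCNN4*), and 1 relative. The block leaves 1 residual degree of freedom.

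Members with few counts were limited by depth. With at least 10 counts required in every library, or with thinned libraries, 6 of the 8 were tested.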

Other observations

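The ratio of *EPB41* to *EPB41L2* counts within a library, which does not depend on scaling, was 1 and 0.839 for sgCtrl and 0.403, 0.477, and 0.419 for sgMTSS1 libraries. The groups could not overlap in it, since every knockout pool was below both control pools for *EPB41* and above both for *EPB41L2*. The separation of the ratio is thus no further result. The pair was set together after the values were seen, and the ratio was not tested.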
